A study of Mus musculus with 25 samples.

Results

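The genotype by saline pump interaction was measured in 17 of the 25 mouse hearts of the series. It is the difference between 2 responses: saline minus no pump in hearts labelled MCT1KO, minus saline minus no pump in wild-type (WT) hearts. It asks how far carrying a saline pump goes with the same RNA change in both genotypes, and it was computed for 17682 genes of the 56941 in the count table. Positive values mean that the response in hearts labelled MCT1KO lay above that in WT. The hearts were WT without a pump (n = 4), labelled MCT1KO without a pump (n = 3), WT with saline (n = 6) and labelled MCT1KO with saline (n = 4). The series has a further treatment, Ang/PE, whose 8 hearts entered the model only to help estimate the spread. Total RNA from the hearts was depleted of ribosomal RNA and sequenced in stranded libraries. The labels do not say which parts of the heart were taken, and they give no strain, age, sex, length of infusion, pump type or hour of collection, and they do not say how, when or in which cells the MCT1KO allele acts. They name no separate source for each heart either, so all p-values measure the spread between these samples.

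Slc16a1 encodes MCT1, a membrane carrier that moves lactate, pyruvate and other monocarboxylates together with a proton. The working heart burns mainly fatty acids, and also lactate, and it shifts between fuels with load, feeding and hormones. A saline pump is the usual control for a drug infusion: the animal undergoes surgery and carries the device but receives vehicle. In bulk tissue a lower value can come from fewer cells of a type or from less RNA per cell, and these cannot be told apart.

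Several features of the libraries differed between the 4 groups. Slc16a1 was at 150 to 233 CPM (counts per 10⁶ reads counted) in WT hearts without a pump and at 167 to 223 CPM in those labelled MCT1KO. With saline it spanned 165 to 249 CPM and 132 to 194 CPM. The label MCT1KO is thus not borne out by a loss of this transcript, and every direction below rests on the labels. Xist, the RNA made from the inactive X chromosome of female cells, had no intermediate values: 6 hearts had at least 585 CPM and 11 had no more than 0.536 CPM. The hearts with Xist were 2 of 4 in WT without a pump, 1 of 6 in WT with saline, 0 of 3 labelled MCT1KO without a pump and 3 of 4 labelled MCT1KO with saline. The share of hearts with Xist thus fell by 33.3 percentage points with saline in WT and was 75 percentage points higher with saline in hearts labelled MCT1KO. Total counts, in units of 10⁶, were 18.4 to 24.9 and 18.9 to 22.6 without a pump, and 17.1 to 19 and 14 to 17.4 with saline, WT first. Mitochondrially encoded genes took 14.8% to 18.4% and 12.8% to 18.2% of counts without a pump, and 8.94% to 14.8% and 9.03% to 17.3% with saline.

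Most saline hearts, but not all, held RNA of atrial muscle, and some in each genotype held RNA of fat. The summed level of 8 atrial muscle genes was 51.5 to 83.3 CPM in WT and 43.9 to 75.2 CPM in MCT1KO-labelled hearts without a pump. With saline it was 54.6 to 1630 CPM in WT and 67.8 to 4549 CPM in hearts labelled MCT1KO. The sums of WT saline replicates 1 and 2 lay inside the range of WT hearts without a pump, with Myl7, an atrial myosin light chain, at 0.465 and 4.58 CPM. Kcna5, a list member, was itself at 25.5 to 55.2 CPM in WT hearts without a pump. Replicate 2 did hold atrial RNA: Myl4 was at 11.2 CPM, against 1.45 to 1.70 CPM in WT without a pump. Its mean log2 level of the list was 2.82, against 0.673 to 1.25 there. The fat list, of 10 tested genes, summed to 282 to 409 CPM in WT and 199 to 288 CPM in MCT1KO-labelled hearts without a pump. With saline it summed to 205 to 302 CPM in WT, no higher than without a pump, and to 264 to 2997 CPM in saline hearts labelled MCT1KO. In WT hearts most of this sum was Fabp4, at 246 to 375 CPM without a pump and 148 to 216 CPM with saline. The list's mean log2 level, which weights genes equally, was 0.0559 to 0.466 in WT without a pump. It was 3.52, 1.40 and 2.47 in WT saline replicates 4, 5 and 6, and 0.00754, 0.83 and 0.297 in replicates 1, 2 and 3. Replicate 4 of the saline hearts labelled MCT1KO was the highest of the 17 hearts in both lists. Replicate 3 of that group stood apart in the other direction. Its atrial sum, the 67.8 CPM, also lay inside the range of hearts without a pump. Its mitochondrial share was 17.3%, against 9.03% to 10% in the other 3.

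Across all genes the estimated responses of the 2 genotypes were only weakly correlated by rank. In WT, 1168 genes passed an adjusted p of 0.05 in edgeR's quasi-likelihood test (6.61%), 422 higher with saline (2.39%) and 746 lower (4.22%). With GC and length offsets 107 passed in WT, 17 higher and 90 lower. Among hearts labelled MCT1KO, 1 gene passed (0.00566%), or 209 by DESeq2, while 2142 had an unadjusted p below 0.05 (12.1%), 1314 higher (7.43%) and 828 lower (4.68%). The response in hearts labelled MCT1KO had the sign of the WT response in 9098 of 17682 genes, or 51.5%. Spearman's rank correlation of the responses was 0.0652, and Pearson's r was 0.437. The larger r came from few genes. For the 239 genes with a response beyond 2 on the log2 scale in either genotype, rho was 0.58 and 85.8% shared their sign. For the other 17443 genes r was 0.0914. These correlations are across genes within one set of hearts, genes are not independent, and no p is given. The responses share no heart, and error in each estimate pulls such correlations toward 0. A low value therefore does not show that the underlying responses differ.

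Signs were also compared among the WT genes that passed the test. Of the 1168, 54.4% (635) had the same sign in hearts labelled MCT1KO. With rising and falling genes pooled, their median log2 response was −0.38 in WT and −0.04 in hearts labelled MCT1KO. Selection by the WT test favours large WT values, so this gap cannot show that the responses differ. The reverse choice took the 2142 genes whose MCT1KO-labelled response had an unadjusted p under 0.05. Their medians were 0.07 in WT and 0.43 under the MCT1KO label, and 55.7% shared their sign. Of the 422 that rose in WT, 44.8% were also above 0 in hearts labelled MCT1KO, and of the 746 that fell in WT, 59.8% were also below 0. The number of WT calls also depended on single hearts: it was 2234, 439, 60 and 224 without replicate 1, 2, 3 or 4 of the hearts that had no pump, and 666, 568, 640 and 649 without replicate 2, 3, 4 or 5 of the saline hearts. So did the agreement. Without replicate 3 of the saline hearts labelled MCT1KO, the sign was shared by 74.7% of the genes called in WT, rho over all genes was 0.217, and 626 genes passed in hearts labelled MCT1KO. Without replicate 1 of the MCT1KO-labelled hearts that had no pump, the share was 32.2% and rho was −0.0746. Without replicate 4 of the saline hearts labelled MCT1KO, the share was 50.1% and rho was 0.0293.

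**Figure D1:**
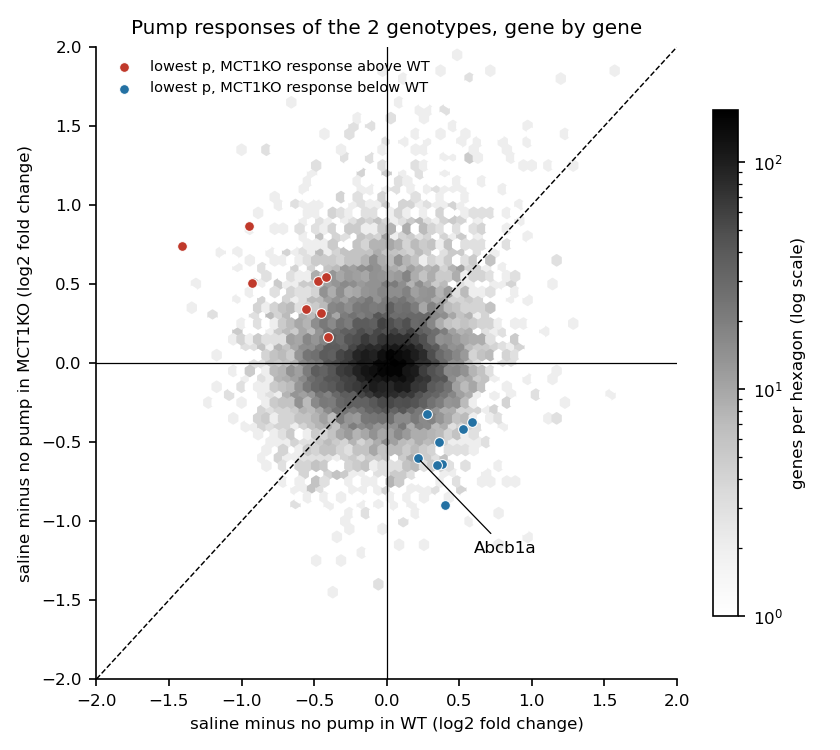
The WT log2 response to saline (x axis) is plotted against that of hearts labelled MCT1KO (y axis) for genes within ±2 on both axes, as hexagons shaded by the number of genes, with equality dashed. The cloud is centred on 0 with no clear slope. Coloured points are the 8 higher (red) and 8 lower (blue) genes of smallest interaction p among those that met the rule for naming. They lie in the quadrants of opposite sign, which choosing by the interaction itself favours.

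The interaction itself passed the test in 1 of 17682 genes (0.00566%), Abcb1a. At an unadjusted p below 0.05 there were 3044 genes (17.2%), 1567 with a higher response in hearts labelled MCT1KO (8.86%) and 1477 with a lower one (8.35%). The responses ran in opposite directions in 87.8% of these 3044 genes. A small p for the difference of 2 responses itself favours opposite signs, so this share describes the genes chosen and is not set against the share of all genes. A further 7.29% had responses of 1 sign with the larger size in WT, and 4.89% of 1 sign with the larger size in hearts labelled MCT1KO. The median half-width of the 95% interval of the interaction was 0.519 on the log2 scale. That interval lay within a 2-fold difference for 59.6% of genes and within 1.5-fold for 30.9%, so for most genes a genotype difference of 1.5-fold in the pump response lay inside the interval. It lay wholly beyond 2-fold for 31 genes.

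For each gene the group whose mean log2 level lay farthest from the mean of the other 3 was found. Over all genes it was WT without a pump in 33.8%, WT with saline in 19.5%, MCT1KO-labelled without a pump in 16.7% and MCT1KO-labelled saline in 30.0%. The genes below were chosen by the interaction, which fixes the side on which each group lies, so their shares are a description. Among the 1567 genes with the higher interaction these shares were 44.6%, 12.6%, 16.3% and 26.5%, in the same order. Among the 1477 genes with the lower interaction they were 34.9%, 25.7%, 12.9% and 26.5%. The count of called interactions moved with single hearts: it was 663 without replicate 1 of the WT hearts that had no pump, 69 without replicate 1 of the MCT1KO-labelled hearts that had no pump, 14 without replicate 6 of the WT saline hearts, and 0 to 3 when any other of the 17 was left out. DESeq2 called 371 genes, 155 higher and 216 lower. With the Xist level as a covariate the edgeR test called 0, and 1278 genes had an unadjusted p below 0.05 with a higher interaction (7.23%) and 971 with a lower one (5.49%).

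Abcb1a (ENSMUSG00000040584) encodes a P-glycoprotein, an efflux pump of capillary endothelium that exports drugs and lipophilic compounds. In WT hearts its level was 26.1, 28.1, 22.5 and 25.5 CPM without a pump and 27.4 to 31.9 CPM with saline (median 29.2). In hearts labelled MCT1KO it was 34.1, 36.7 and 32.5 CPM without a pump and 25.4, 22.1, 22.6 and 20.7 CPM with saline. The MCT1KO-labelled groups did not overlap, and the WT groups overlapped by 1 heart in each. Without a pump every heart labelled MCT1KO lay above every WT heart, and with saline every one lay below. The log2 response was 0.21 (SE 0.08, edgeR adjusted p = 0.118) in WT and −0.60 (SE 0.10, edgeR adjusted p = 0.044) in hearts labelled MCT1KO, where Abcb1a fell. The interaction was −0.81 (95% interval −1.08 to −0.55, edgeR adjusted p = 0.0285). It kept its sign and ran from −0.99 to −0.74 over all alternatives. The call was lost, with an adjusted p above 0.05, in 10 of the 17 fits that left out 1 heart. It was also lost in 7 of 15 other alternatives, among them the Xist covariate (−0.87, edgeR adjusted p = 0.201).

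Beside it, 18 endothelial markers had a median interaction of 0.01, with 1 above and 3 below 0 at an unadjusted p below 0.05, against 8.86% and 8.35% of all genes. Their summed level was 1809 to 2202 and 1794 to 2100 CPM without a pump and 1871 to 2151 and 1717 to 2084 CPM with saline, WT first, with no marker at 0. The lower ones were Kdr, the main VEGF receptor (−0.77), Cdh5, the endothelial cadherin (−0.46), and Tie1, a receptor of the angiopoietin system (−0.31), and the higher was Cav1, the caveolar coat protein (0.51). Their part in the Abcb1a result was not tested. The second mouse P-glycoprotein gene, Abcb1b, is a close copy of Abcb1a, and how the counting treated reads that fit both is not given in the sources used here. Abcb1b spanned 8.14 to 14.2 CPM over the 17 hearts, and its interaction was 0.24 (SE 0.23). Of the 38 ABC transporters tested, 3 had a higher and 8 a lower interaction at an unadjusted p below 0.05, where the shares of all genes were 8.86% and 8.35%. Besides Abcb1a the smallest p were those of Abcc3, an exporter of conjugates, with 1.15, and Abcb10, a mitochondrial inner-membrane transporter, with −0.55. The RefSeq start of Abcb1a, 100 bases before and 20 after it, is shown as the promoter of the called gene. It lies at chr5:8566991-8567110 on the plus strand (GRCm38.p6), with the bases from the start on in capitals. The letters GGGCGG or their reverse complement, the GC box present in 65.8% of the 11415 tested genes with a listed promoter, do not occur in the 120 bases shown.
Abcb1a: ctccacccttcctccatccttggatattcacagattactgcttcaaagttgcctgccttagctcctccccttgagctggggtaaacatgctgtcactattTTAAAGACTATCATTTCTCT

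The 8 genes with the smallest p and a higher interaction did not pass adjustment (edgeR adjusted p = 0.112 for each). They were lower with saline in WT and higher with saline in hearts labelled MCT1KO. Cmklr1, a receptor for the chemoattractant chemerin, was at 29.1, 40.8, 60.9 and 36.5 CPM in WT without a pump and 18 to 28.3 CPM with saline (median 21.2). Under the MCT1KO label it was at 27.3, 20.2 and 23.9 CPM without a pump and 29.2, 29.7, 47.4 and 29.4 CPM with saline. Neither genotype's groups overlapped, in opposite directions, and the interaction was 1.44 (SE 0.32), or 0.96 with the Xist covariate. Tceal8, an X-linked gene of the elongation factor A-like family, was at 7.58, 7.36, 8.69 and 8.69 CPM in WT without a pump and 5.14 to 6.94 CPM with saline (median 5.45). The MCT1KO-labelled hearts were at 6.97, 5.04 and 6.97 CPM and then at 7.77, 7.85, 9.06 and 11.6 CPM. Its groups did not overlap in either genotype, and the interaction was 0.99 (SE 0.22), or 1.22 with the Xist covariate.

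Zfp942, a zinc finger gene, had the same order with a narrow spread. It was at 8.93, 10.4, 10.1 and 10.9 CPM in WT without a pump and 7.21 to 8.4 CPM with saline (median 7.51). In hearts labelled MCT1KO it was at 8.24, 8.32 and 8.18 CPM without a pump and 9.03, 9.16, 9.75 and 8.97 CPM with saline. Again neither pair of groups overlapped, with an interaction of 0.57 (SE 0.13). The other 5 were Islr2, a leucine-rich repeat membrane protein (2.15), Pla2g7, the secreted enzyme that inactivates platelet-activating factor (1.81), Ccl27a, a chemokine (0.96), Slc25a24, a mitochondrial ATP-Mg/phosphate carrier (0.90), and Ube2w, a ubiquitin-conjugating enzyme (0.77). With GC and length offsets Zfp942 had 0.339, and with Xist, atrial and fat levels as covariates Cmklr1 had 0.728 and Pla2g7 1.2. In Pla2g7, replicates 3 and 4 of the saline hearts labelled MCT1KO were at 10.4 and 18.2 CPM and replicates 1 and 2 at 5.49 and 5.24 CPM, the latter among the values of 4.98 to 5.68 CPM without a pump. All 8 had non-overlapping groups without a pump, with every heart labelled MCT1KO below every WT heart. That contrast shares hearts with the interaction that chose them. The share of all genes separated in this way is not given, so the count is only a description.

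The genes with the smallest p and a lower interaction were, after Abcb1a, higher with saline in WT and lower with saline in hearts labelled MCT1KO (edgeR adjusted p = 0.112 for each of 7). Rasgrf2, a calcium-sensitive exchange factor for Ras and Rac, was at 18, 17.5, 18.3 and 17.8 CPM in WT without a pump and 19.3 to 28.5 CPM with saline (median 21.8). Under the MCT1KO label it was at 29.2, 29.6 and 28.8 CPM without a pump and 19.9, 20.4, 18.5 and 24 CPM with saline. The groups did not overlap in either genotype and each of the 3 hearts labelled MCT1KO without a pump lay above all 10 WT hearts. The interaction was −0.86 (SE 0.18). Synj2, a phosphoinositide phosphatase, was at 105, 87.0, 77.7 and 94.9 CPM in WT without a pump and 116 to 149 CPM with saline (median 129). The MCT1KO-labelled hearts were at 108, 168 and 128 CPM and then 112, 119, 88.3 and 83.1 CPM, which overlap. Its interaction was −0.95 (SE 0.19).

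Cecr2, a bromodomain subunit of chromatin remodelling complexes, was at 39.4, 30.5, 28.5 and 38.2 CPM in WT without a pump and 30.8 to 47.9 CPM with saline (median 45.4). In hearts labelled MCT1KO it was at 46.6, 62.1 and 48.5 CPM without a pump and 37.3, 36.8, 33.1 and 26.8 CPM with saline. The MCT1KO-labelled groups did not overlap and the WT groups did. The interaction was −0.99 (SE 0.19). The remaining 4 were Nkain1, a partner of the sodium pump (−1.30), Myo5b, a motor of recycling endosomes (−1.02), Ets2, a transcription factor (−0.96), and Dcaf5, a substrate receptor of a ubiquitin ligase (−0.60). With Xist, atrial and fat levels as covariates the interaction was −0.381 for Cecr2, −0.452 for Myo5b, −0.589 for Synj2 and −0.828 for Nkain1. With the Xist covariate, the 4 lower genes with the smallest p were Abcb1a, Dennd6b (−1.03), a Rab activator, Sema3g (−0.83), a semaphorin of arterial endothelium, and Notch3 (−0.87), the Notch receptor of vascular smooth muscle (edgeR adjusted p = 0.201 to 0.21). The 4 higher ones were Tceal8, Ube2w, Elmod2 (0.78), an activator of GTPase turnover, and Elovl6 (5.81), a fatty acid elongase. Elovl6 was at 6.55, 3.67, 1.31 and 105 CPM in saline hearts labelled MCT1KO and no higher than 1.76 CPM elsewhere (13 hearts), and its high heart, replicate 4, is the one with the most fat RNA. Its interaction without a covariate was 4.64, or 1.74 without that heart, and −0.434 with the atrial and fat levels as covariates.

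**Figure D2:**
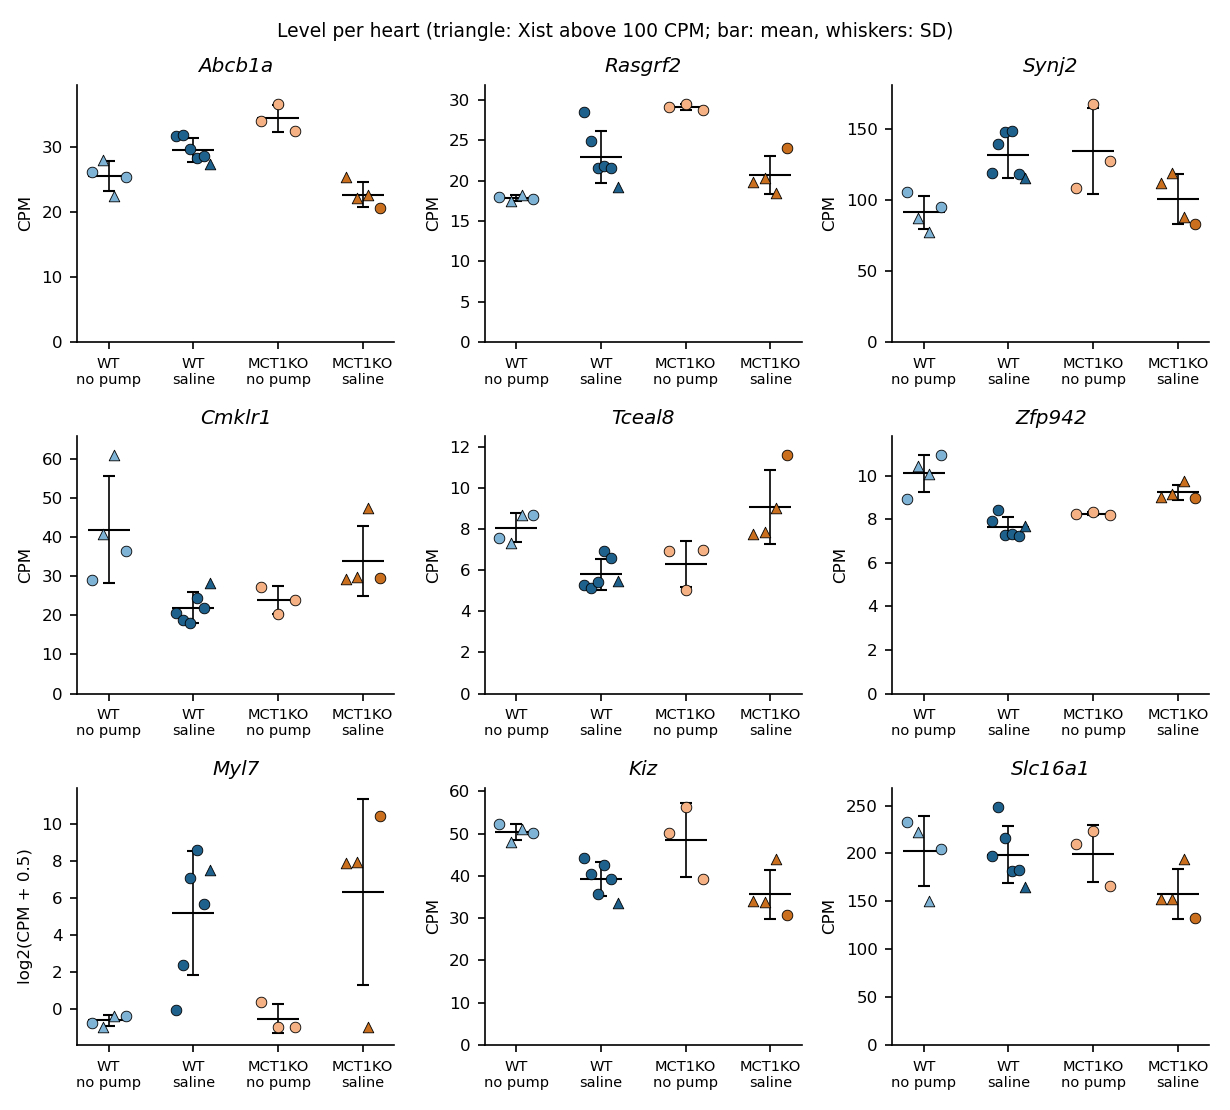
Each panel gives 1 gene's CPM in the 17 hearts (Myl7 as log2(CPM + 0.5)) by group, with the mean and SD. Triangles are hearts with Xist above 100 CPM. Abcb1a, Rasgrf2 and Synj2 cross from a higher to a lower level in hearts labelled MCT1KO and the other way in WT, Cmklr1, Tceal8 and Zfp942 show the reverse, and Myl7 and Kiz shift the same way in both genotypes.

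Genes whose responses agreed were found by the larger of the 2 unadjusted p. The 6 highest with saline in both genotypes were led by atrial genes. Myl7, the atrial regulatory myosin light chain, was at 0 to 0.268 CPM in WT without a pump and 0.465 to 379 CPM with saline (median 90.4), where it rose (edgeR adjusted p = 0.0166). Under the MCT1KO label it was at 0.785, 0 and 0 CPM without a pump and 237, 244, 0 and 1357 CPM with saline (edgeR adjusted p = 0.129). Replicate 3 of the saline hearts labelled MCT1KO, at 0, and replicate 1 of the WT saline hearts, at 0.465, were the saline hearts with no more Myl7 than hearts without a pump. Myl4, the atrial essential light chain, and Sln, which encodes the calcium pump inhibitor sarcolipin, followed the same hearts: 373, 331, 1.5 and 1975 CPM of Myl4 and 85.0, 67.3, 0 and 348 CPM of Sln with saline. The other 3 were Sv2a, a vesicle glycoprotein (WT 1.12, MCT1KO-labelled 1.25 on the log2 scale), Cacna2d2, a calcium channel subunit (2.18 and 2.91), and Capn15, a calpain (0.28 and 0.30). Capn15 was at 16.9 to 18.7 CPM in WT without a pump and 20.3 to 23 CPM with saline (median 21.9), and in hearts labelled MCT1KO at 18, 20.3 and 18.2 CPM and then 24.9, 25.3, 19.4 and 23.1 CPM. Under the MCT1KO label Cacna2d2 had 1.69 without replicate 4 of the saline hearts and turned to −0.65 with the atrial and fat levels as covariates. Sv2a turned to −0.127 there with Xist added to these. With GC and length offsets the WT response of Capn15 was 0.0132.

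The 6 lowest with saline in both genotypes are in neither the atrial nor the fat list. Kiz, a protein of the centrosome, was at 52.3, 47.9, 51.2 and 50.1 CPM in WT without a pump and 33.7 to 44.3 CPM with saline (median 39.9). The MCT1KO-labelled hearts were at 50.1, 56.4 and 39.2 CPM without a pump and 34, 33.8, 43.9 and 30.8 CPM with saline. The WT groups did not overlap. Replicate 3 of the saline hearts labelled MCT1KO was again the one inside the range without a pump. Kiz fell in WT (−0.36, edgeR adjusted p = 0.035) and had −0.45 in hearts labelled MCT1KO (edgeR adjusted p = 0.142), with an interaction of −0.09 (95% interval −0.41 to 0.23). Hbp1, a transcriptional repressor of cell cycle genes, had −0.30 and −0.27 with an interaction of 0.03 (95% interval −0.21 to 0.27). The others were Wdr92, a dynein assembly factor (−0.46 and −0.36), Nedd1, which recruits gamma-tubulin (−0.38 and −0.31), Zfp518a, a zinc finger gene (−0.36 and −0.25), and Dnm3, a dynamin (−0.40 and −0.53). In WT 5 of these 6 fell, all but Dnm3 (edgeR adjusted p = 0.0868). None of the 6 passed adjustment in hearts labelled MCT1KO. With Xist, atrial and fat levels as covariates their responses there were smaller in 5 of the 6: −0.0033 for Hbp1, −0.0343 for Nedd1, −0.235 for Kiz, −0.236 for Wdr92 and −0.331 for Dnm3.

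Gene lists are given by counts and medians beside the median interaction of all genes, 0.03 on the log2 scale, and no test of a list was made. Lactate and pyruvate handling, the process of the targeted transporter, had a median of −0.11, with 2 of 20 genes higher and 5 lower at an unadjusted p below 0.05, against 8.86% and 8.35% of all genes. That median rested on single hearts and settings: it was −0.03 without replicate 4 of the saline hearts labelled MCT1KO or without replicate 3 of the WT hearts that had no pump, and −0.19 without replicate 3 of either MCT1KO-labelled group. It was 0.03 with the atrial and fat levels as covariates. In hearts without Xist it was −0.48, but there replicate 4 is the only saline heart labelled MCT1KO. Pdk1, a kinase that switches off pyruvate dehydrogenase, was at 264, 199, 178 and 195 CPM in WT without a pump and 174 to 259 CPM with saline (median 229). In hearts labelled MCT1KO it was at 225, 255 and 217 CPM without a pump and 173, 169.7, 189.6 and 124 CPM with saline. The MCT1KO-labelled groups did not overlap, and the interaction was −0.61 (SE 0.19, edgeR adjusted p = 0.14). Pdk2, its sister kinase, had −0.65 and Dlat, the acetyltransferase of the same complex, −0.42. Slc16a7, the transporter MCT2, had 0.82, and Emb, a chaperone of monocarboxylate transporters, 1.30. Slc16a1 had −0.31 (95% interval −0.73 to 0.11, edgeR adjusted p = 0.437), or −0.178 without replicate 3 of the WT hearts that had no pump.

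Fatty acid uptake and oxidation differed more. Its 28 genes had a median response of 0.03 in WT and −0.41 in hearts labelled MCT1KO, and 27 of 28 were below 0 in the latter, 16 of them at an unadjusted p below 0.05 (4.68% of all genes). The median interaction was −0.41, with 0 genes higher and 11 lower at an unadjusted p below 0.05 (8.86% and 8.35% of all genes). In 22 of the 28 the MCT1KO-labelled saline group was the one farthest from the others. Acot2, a mitochondrial thioesterase, was at 105, 86.3, 84.0 and 101 CPM in WT without a pump and 76.5 to 115 CPM with saline (median 106). Under the MCT1KO label it was at 79.1, 124 and 78.7 CPM without a pump and 48.7, 65.6, 65.9 and 44.5 CPM with saline. The 4 saline hearts labelled MCT1KO were the lowest of the 17, and the interaction was −0.82 (SE 0.28, edgeR adjusted p = 0.152). Acads, the short-chain dehydrogenase, had −0.59. The median was −0.35 without replicate 4 of the saline hearts labelled MCT1KO and −0.47 without replicate 3. With the Xist covariate it was −0.34 and 1 gene kept an unadjusted p below 0.05 (5.49% of all genes), and with Xist, atrial and fat levels together it was −0.17 with none.

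Glycolysis and glucose uptake had a median interaction of −0.24, with 1 of 20 genes higher (Pgam1, a mutase, 0.59) and 3 lower: Hk2, a hexokinase (−0.81), Pfkm, the muscle phosphofructokinase (−0.64), and Pfkfb2, which sets its activator (−0.72), against 8.86% and 8.35% of all genes. The median was −0.13 without replicate 4 of the saline hearts labelled MCT1KO and −0.15 without replicate 3 of the WT hearts that had no pump. It was −0.05 with the atrial and fat levels as covariates and −0.005184 with Xist added. In hearts without Xist, where replicate 4 is the only saline heart labelled MCT1KO, it was −0.77. The nuclear genes of the respiratory chain had a median response below 0 in both genotypes. In WT it was −0.28, with 63 of 76 below 0, 13 above 0 and 16 that fell (4.22% of all genes did). For the MCT1KO-labelled hearts it was −0.19, with 75 of 76 below 0. Of these, 4 had an unadjusted p below 0.05, near the share of all genes (4.68%), and 0 passed adjustment. The list's mean log2 level was 8.11 in replicate 3 of the saline hearts labelled MCT1KO, above the 7.71 to 8.08 of the MCT1KO-labelled hearts without a pump, and 7.16 to 7.73 in the other 3. The median interaction was 0.08, with 2 genes higher and 2 lower, and it turned to −0.09 without that replicate 3 and to −0.13 with the Xist covariate. The 13 mitochondrially encoded proteins had medians of −0.53 and −0.68 and no gene with an interaction p below 0.05.

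All 22 genes of the adult sarcomere and calcium handling had a negative interaction, with a median of −0.48. Of them 11 had an unadjusted p below 0.05 (lower in 8.35% of all genes). The medians were 0.24 in WT, where 2 rose (2.39% of all genes did), and −0.29 in hearts labelled MCT1KO. Ttn, the giant spring of the sarcomere, was at 50660, 39480, 31190 and 33930 CPM in WT without a pump and 63240 to 79740 CPM with saline (median 67840). The MCT1KO-labelled hearts were at 44750, 76850 and 80710 CPM without a pump and 67970, 69200, 43810 and 43070 CPM with saline. Its WT groups did not overlap and it rose in WT (0.85, edgeR adjusted p = 0.016), while the MCT1KO-labelled groups overlapped, and the interaction was −1.12 (SE 0.29, edgeR adjusted p = 0.127). Cacna1c, the pore of the L-type calcium channel, had −0.86, Kcnd2, a channel of the transient outward current, −0.85, and Actn2, the Z-disc actinin, −0.72. The list's mean log2 level was 10 in replicate 4 of the saline hearts labelled MCT1KO, the heart with the most atrial and fat RNA, and 10.7 to 11.3 in the other 16. Without that heart the median interaction was −0.29, with 8 genes lower at an unadjusted p below 0.05. With the atrial and fat levels as covariates it was −0.12, with 1 higher and 3 lower, and with the Xist covariate alone −0.60 with 9 lower (5.49% of all genes). It was −1.15 in hearts without Xist, where replicate 4 is the only saline heart labelled MCT1KO. The 11 hypertrophy markers had a median of −0.24 and 0 genes with an interaction p below 0.05; the smallest p was that of Nppb, which encodes a natriuretic peptide (1.5, SE 0.75). Ccn2, a matricellular protein of that list, had 0.95 (SE 0.90). The median of the hypertrophy markers had no stable sign: it ran from −0.42 without replicate 1 of the WT hearts that had no pump to 0.14 without replicate 3 of the MCT1KO-labelled hearts that had no pump, and from −0.81 in hearts without Xist to 0.14 with the atrial and fat levels as covariates.

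**Figure D3:**
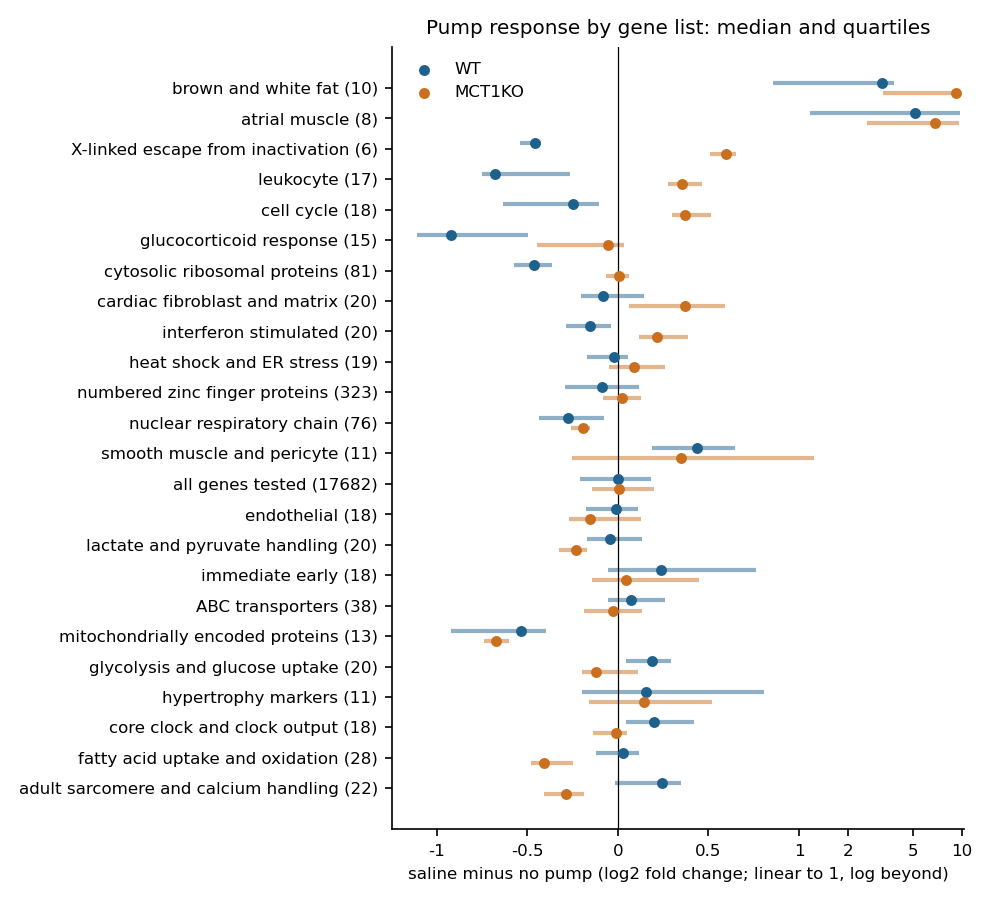
For each list (number of tested genes in brackets) the point is the median and the bar the quartiles of the log2 response to saline, in WT (blue) and in hearts labelled MCT1KO (orange), ordered by the median interaction. Leukocyte, cell cycle and X escape genes lie below 0 in WT and above 0 in hearts labelled MCT1KO, sarcomere genes the other way round, and the mitochondrial lists lie below 0 in both.

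The cytosolic ribosomal proteins, which build the ribosome together with its RNA, had an interaction above 0 in 79 of 81 genes. Of the 81, 59 fell in WT (4.22% of all genes did), with a median of −0.46, and none passed in hearts labelled MCT1KO, where the median was 0.01. The median interaction was 0.48, and 60 of 81 were higher at an unadjusted p below 0.05, with 0 lower (8.86% and 8.35% of all genes). In 77 of the 81 the group farthest from the others was WT without a pump, above them. The list's mean log2 level was 6.85 ± 0.21 (SD, n = 4) there, 6.38 ± 0.06 (n = 6) in WT with saline, 6.39 ± 0.17 (n = 3) labelled MCT1KO without a pump and 6.38 ± 0.21 (n = 4) labelled MCT1KO with saline. Rps7, of the small subunit, was at 153, 169, 235 and 201 CPM in WT without a pump and 100 to 120 CPM with saline (median 112). In hearts labelled MCT1KO it was at 156, 109.9 and 111 CPM without a pump and 111, 122, 171 and 102 CPM with saline. The WT groups did not overlap, the MCT1KO-labelled ones did, and the interaction was 0.77 (SE 0.22, edgeR adjusted p = 0.132). With the Xist covariate the list's median was 0.35 and 14 genes had an unadjusted p below 0.05 (7.23% of all genes), and with atrial and fat levels added 0.44 and 7. Replicate 3 of the saline hearts labelled MCT1KO had the highest mean of its group, 6.69, and the median was 0.39 without it. In hearts without Xist, where replicate 4 is the only saline heart labelled MCT1KO that is left, the median was 0.18.

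Promoters are shown for 3 ribosomal protein genes because members of this list fell together in WT. They are the ones with the smallest interaction p that hold, in the 120 bases shown, the 7 letters CCGGAAG (either strand), which contain the core bound by ETS-family factors; the letters are in capitals. RefSeq (GRCm38.p6) lists a promoter of 300 bases for 59 of the 81 genes, and 24 of these hold the letters (40.7%), against 18.4% of 11415 tested genes. The windows are chr9:66945986-66946105 on the plus strand, chr12:28635934-28636053 on the minus strand and chr1:39367751-39367870 on the plus strand, each read 5′ to 3′ along the gene. A match of letters is no evidence of binding. The interaction was 0.81 for Rps27l, 0.77 for Rps7 and 0.74 for Rpl31.
Rps27l: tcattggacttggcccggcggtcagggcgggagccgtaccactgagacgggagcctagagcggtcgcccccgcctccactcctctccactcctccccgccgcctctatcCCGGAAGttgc
Rps7: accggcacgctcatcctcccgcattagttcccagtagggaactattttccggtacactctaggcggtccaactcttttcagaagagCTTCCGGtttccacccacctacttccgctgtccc
Rpl31: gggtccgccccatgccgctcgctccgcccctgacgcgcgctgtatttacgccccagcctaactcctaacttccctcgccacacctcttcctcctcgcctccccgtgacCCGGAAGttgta

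The leukocyte list, mostly genes of tissue macrophages, had median responses of opposite sign in the genotypes. Its 17 genes had a median of −0.68 in WT, where 5 fell (4.22% of all genes did). The median was 0.36 in hearts labelled MCT1KO, where 16 of 17 were above 0. There, 1 was higher at an unadjusted p below 0.05 (7.43% of all genes). The median interaction was 0.92, with 11 of 17 higher and 0 lower at an unadjusted p below 0.05 (8.86% and 8.35% of all genes). C1qc, a chain of complement C1q made by macrophages, was at 26.6, 54.3, 46.2 and 53.4 CPM in WT without a pump and 21 to 31.3 CPM with saline (median 27.9). Under the MCT1KO label it was at 28.5, 18.6 and 24.8 CPM without a pump and 28.2, 30.4, 37.2 and 27.0 CPM with saline. Replicate 1 of the WT hearts without a pump was low and made the WT groups overlap, as did the MCT1KO-labelled ones. C1qc fell in WT (−0.74, edgeR adjusted p = 0.022) and its interaction was 1.09 (SE 0.29, edgeR adjusted p = 0.129). Cd68, a lysosomal protein of macrophages, had 1.43, C1qb 1.05 and Mrc1, the mannose receptor, 0.87. The list's summed level was 421 to 797 and 341 to 482 CPM without a pump and 359 to 564 and 446 to 610 CPM with saline, WT first, with no marker at 0. The median was 0.76 with 5 higher under the Xist covariate (7.23% of all genes), and 0.54 with 0 higher with the atrial and fat levels added.

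For this list the promoters of Mrc1 and Itgam, an integrin of myeloid cells, are shown, the 2 genes of smallest interaction p whose 120 bases hold GAGGAAG on either strand, in capitals. These letters contain a core of the myeloid factor PU.1 and share GGAAG with the motif above. They occur in 4 of the 11 leukocyte genes with a listed promoter (36.4%), in 16.1% of all tested genes and in 6 of 13 endothelial genes (46.2%). The windows are chr2:14229314-14229433 on the plus strand and chr7:128062540-128062659 on the plus strand (GRCm38.p6, RefSeq).
Mrc1: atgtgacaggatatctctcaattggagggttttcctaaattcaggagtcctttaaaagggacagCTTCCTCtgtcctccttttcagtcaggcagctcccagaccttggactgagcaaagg
Itgam: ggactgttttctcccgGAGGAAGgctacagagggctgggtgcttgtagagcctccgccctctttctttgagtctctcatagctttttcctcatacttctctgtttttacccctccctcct

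The fibroblast, cell cycle and interferon lists also had a median interaction above 0, with fewer genes at an unadjusted p below 0.05. Over all genes the shares at that p were 8.86% higher and 8.35% lower. The 20 fibroblast and matrix genes had medians of −0.08 in WT and 0.37 in hearts labelled MCT1KO and an interaction of 0.43, with 3 higher and 0 lower, or 0.28 without replicate 2 of the MCT1KO-labelled hearts that had no pump. Lum, a collagen-binding proteoglycan, was at 44.8, 81.0, 128 and 58.1 CPM in WT without a pump and 30.1 to 60.0 CPM with saline (median 45.6). The MCT1KO-labelled hearts were at 47.8, 35.3 and 54.4 CPM without a pump and 72.1, 64.9, 87.1 and 67.0 CPM with saline. Only the MCT1KO-labelled groups did not overlap, and the interaction was 1.43 (SE 0.37, edgeR adjusted p = 0.129). The 18 cell cycle genes had an interaction median of 0.69, with 4 higher: Pcna, the replication clamp (0.44), Ccna2, a cyclin (1.6), and the mitotic kinases Plk1 (1.13) and Bub1 (1.54). That median was 0.42 without replicate 2 of the WT hearts that had no pump and 0.45 with the Xist covariate. It was −0.31, the other direction, in hearts without Xist, where replicate 4 is the only saline heart labelled MCT1KO. The 20 interferon-stimulated genes had 0.41, with 4 higher, led by Ifi27l2a (2.51, SE 0.62), and 0.13 under the Xist covariate, or 0.02 with atrial and fat levels added. The 11 smooth muscle and pericyte genes did not share this direction. Their responses had medians of 0.44 in WT and 0.35 in hearts labelled MCT1KO, and the median interaction was 0.03, with 6 genes above and 5 below 0 and −0.41 without replicate 4 of the saline hearts labelled MCT1KO. At an unadjusted p below 0.05, Notch3 (−0.69) and Pdgfrb, the PDGF receptor of pericytes (−0.44), had a lower interaction and Acta2, smooth muscle actin (1.28), a higher one.

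Glucocorticoid response genes were high in some hearts without a pump. Of 15 genes, 4 fell in WT (4.22% of all genes did), with a median of −0.92, and the median was −0.05 in hearts labelled MCT1KO. The interaction median was 0.62, with 5 higher and 0 lower at an unadjusted p below 0.05 (8.86% and 8.35% of all genes). Fkbp5, a chaperone of the steroid receptor and a standard target of it, was at 41.9, 126, 146 and 33.2 CPM in WT without a pump and 16.7 to 28.0 CPM with saline (median 22.8). In hearts labelled MCT1KO it was at 40.0, 18.3 and 35.8 CPM without a pump and 16.7, 19.1, 70.6 and 20.4 CPM with saline. The 3 highest hearts, replicates 2 and 3 of WT without a pump and replicate 3 of MCT1KO-labelled saline, all had Xist. The interaction of Fkbp5 was 1.94 (SE 0.87, edgeR adjusted p = 0.265). With the Xist covariate the list's median was 0.03 with 0 genes at an unadjusted p below 0.05, and without replicate 3 of the saline hearts labelled MCT1KO it was 0.43 with 0. In hearts without Xist, where replicate 4 is the only saline heart labelled MCT1KO, it was −0.05. Clock genes had −0.31, with 2 of 18 lower, among them Bhlhe41 (−0.75), a transcriptional repressor of the clock, against 8.35% of all genes. The clock median was −0.18 without replicate 2 of the MCT1KO-labelled hearts that had no pump, −0.10 with the clock component as a covariate and −0.69 with Xist, atrial and fat levels as covariates. Of the immediate early genes 1 of 18 was lower, Klf2 (−0.75), and of heat shock and ER stress genes 0 of 19 passed in either direction.

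**Figure D4:**
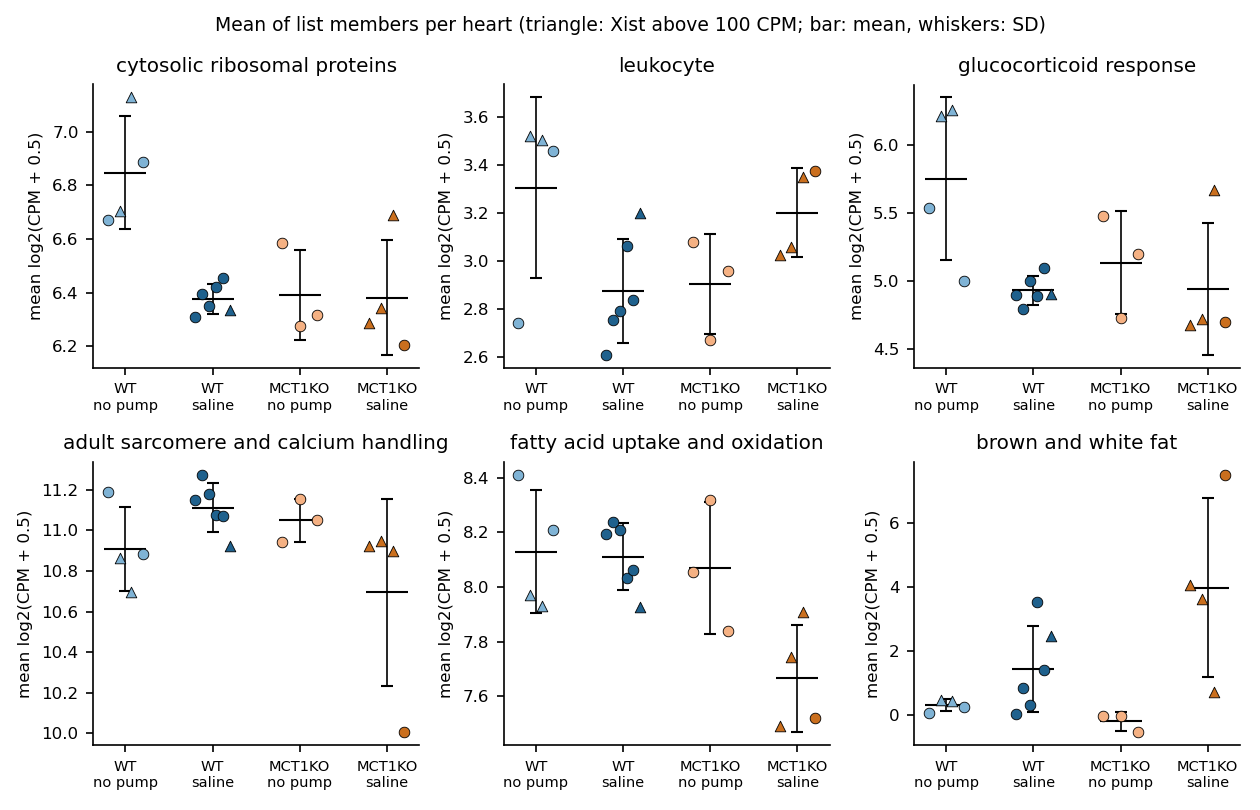
Points are hearts, and triangles are hearts with Xist above 100 CPM, with mean and SD per group. The y axis, although labelled log2(CPM + 0.5), is the mean over a list's tested genes of edgeR's log2 CPM with a prior count of 2. By group mean, ribosomal protein genes are highest in WT hearts without a pump and fatty acid genes are lowest in saline hearts labelled MCT1KO. Single hearts overlap in both lists. Replicate 4 of the saline hearts labelled MCT1KO is lowest in sarcomere and highest in fat genes.

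Sex-linked genes followed the Xist pattern. All 6 X-linked genes that escape inactivation had a higher interaction at an unadjusted p below 0.05 (8.86% of all genes). Their median was 1.02, led by 5530601H04Rik (1.19), the histone demethylase Kdm6a (1.10) and Pbdc1 (1.14). With the Xist covariate the median was 0.16 with 0 of 6. The 4 Y-linked genes had a median of −2.61 with 0 of 4, or −12.9 without replicate 4 of the saline hearts labelled MCT1KO, the one of its group without Xist, and 1.06 with the Xist covariate. The 8 atrial genes had a median interaction of 1.23 with 0 genes at an unadjusted p below 0.05. It was 0.19 without replicate 4 of the saline hearts labelled MCT1KO, 0.73 and 0.81 without replicate 3 of the WT or of the MCT1KO-labelled hearts that had no pump, and −0.13 with Xist, atrial and fat levels as covariates. The 10 fat genes had 5.12, with 5 higher, among them Pparg, the master regulator of adipocytes (1.6), and Fabp4, a fatty acid carrier of fat and capillaries (0.96). Without replicate 4 of the saline hearts labelled MCT1KO the fat median was 2.63 with 1 higher. Of 323 numbered zinc finger genes, 47 were higher and 16 lower at an unadjusted p below 0.05 (8.86% and 8.35% of all genes). Their median was 0.13. Responses also varied with base composition: Spearman's rho of GC content with the response was 0.335 in WT, 0.134 in hearts labelled MCT1KO and −0.143 for the interaction, over 17172 genes. With GC and length offsets the zinc finger median was 0.09 (30 higher, 13 lower) and that of ribosomal proteins 0.38 (53 higher).

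**Figure D5:**
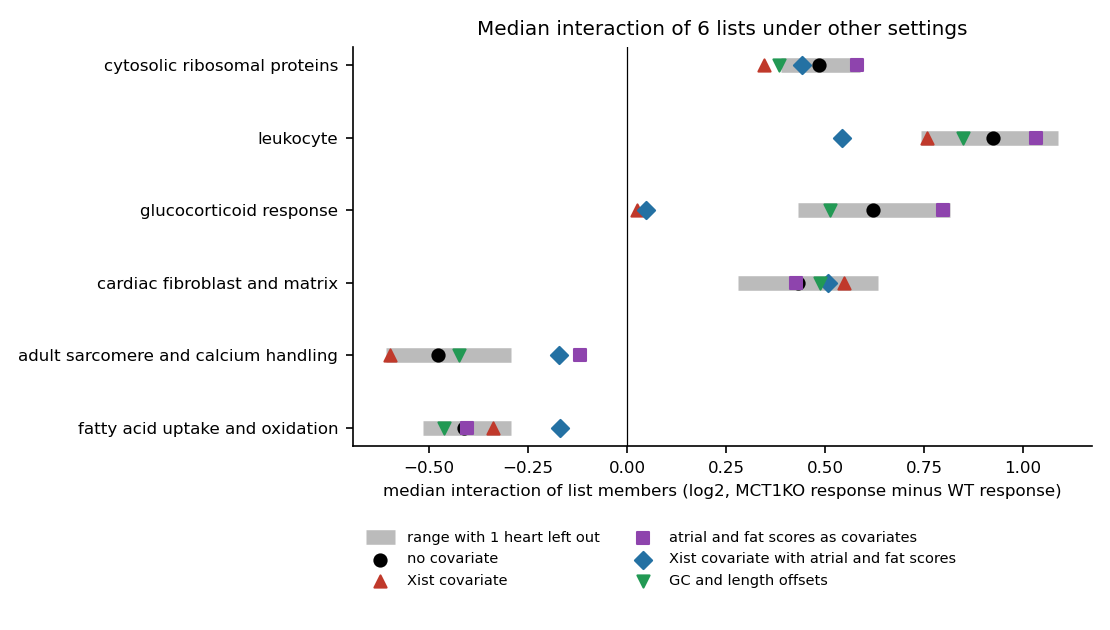
For 6 lists the median interaction (x axis, log2) is shown without covariates and under 4 other settings, with a grey bar for the range when each of the 17 hearts is left out. The ribosomal and leukocyte medians stay above 0 and the sarcomere and fatty acid medians below 0 in all of these, while the glucocorticoid median is near 0 in both settings with the Xist covariate.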

How the data were processed

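RNA was measured in mouse hearts by sequencing of ribosomal RNA-depleted, stranded libraries, per the labels' protocols. The authors deposited 1 table of raw read counts per Ensembl gene and library, whole numbers with no normalization. The submitters' processing notes name STAR 2.7.9a, cutadapt 1.16, featureCounts 1.6.3 and DESeq2 1.42.1 and the builds GRCm39 and mm39, with no role or order; the annotation release, the strand setting and the treatment of shared reads are not given in the sources used here. Antisense, overlapping and near-identical genes are therefore uncertain. Columns were matched to samples by the library identifier in the titles, with 0 columns unmatched.

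Counts were tested with edgeR 4.0.16 (R 4.3.3): filterByExpr by group left 17682 of 56941 genes, library sizes were scaled by TMM, and 1 robust quasi-likelihood model of all 25 hearts with a mean per group (19 residual degrees of freedom) was tested by contrasts, two-sided. P-values were adjusted over all genes (Benjamini-Hochberg), with a threshold of 0.05 for a call. Standard errors came from the F statistic. CPM (counts per 10⁶) uses TMM-scaled library sizes. Log2 levels of single genes add 0.5 to CPM. List means and the mean log2 CPM of genes use edgeR's log2 CPM with a prior count of 2. The script was tested on simulated counts. Symbols, GC content and length came from GENCODE M21 (GRCm38), found for 97.1% of tested genes, and promoters from RefSeq (GRCm38.p6). As these differ from the authors' build, they served only for names, composition and sequence.

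Named genes were Slc16a1, Abcb1a, the 8 higher and 8 lower genes of smallest interaction p, the 4 and 4 of smallest p with the Xist covariate, and the 6 and 6 with the same sign in both genotypes by the larger p. Each needed a symbol and a mean log2 CPM above 1 over the 17 hearts, and predicted, sex-linked marker and mitochondrial genes were left out. List members were named among the 3 smallest p of a list, or to give all members that met a count; Abcb1b, Actn2, Ccn2, Dlat, Emb, Cav1, Fkbp5, Pfkfb2, Rps7, Rpl31, Mrc1 and Itgam were chosen after their values were seen. Some list members are not reported here by name. The comparison, the lists and the rule were chosen with earlier results of these data known. Alternatives were RLE scaling, no filter (genes with any count), the 17 hearts alone, a replicate block, a non-robust fit, removal of mitochondrial genes, Xist as a covariate, hearts without Xist, atrial and fat scores or a clock component as covariates, GC and length offsets (mgcv 1.9.3), counts thinned to the smallest library, DESeq2 1.42.0 and leaving out each of the 17 hearts. Xist with atrial and fat scores was added after seeing the data. Within-group pairs of libraries differed by a chi-square of at least 3.33 per degree of freedom (30 pairs, median 21.9), so none was taken as a copy. The lowest pair was replicates 1 and 2 of the saline hearts labelled MCT1KO. The next lowest of all pairs was 9.8, and the other pairs of that group were at 47.3 to 108. Those 2 hearts were thus unusually alike, and why was not tested.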

Additional observations from a re-analysis of the deposited data

Results flagged for a closer look

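Of 102 checks of a group of 4 to 6 hearts for a single distant value among the named genes, 6 were past the 95% limit, where chance alone gives 5.1. On the log2(CPM + 0.5) scale, Cmklr1 stood above its group in replicate 3 of the saline hearts labelled MCT1KO (5.58, next value 4.92), a saline heart with no Myl7. Myo5b stood below in replicate 4 of the same group (4.93, next value 5.69), the heart with the most atrial and fat RNA. Cecr2 stood below in replicate 6 of the WT saline hearts (4.97, next value 5.47), the only one of that group with Xist. In WT hearts without a pump, Pla2g7 stood below in replicate 1 (2.85, next value 3.70), Zfp518a below in replicate 2 (4.34, next value 4.47) and Elmod2 above in replicate 4 (4.35, next value 4.15). The response of Abcb1a differed between genotypes by the interaction test itself (−0.812 on the log2 scale, edgeR adjusted p = 0.0285).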

How the results depend on the processing

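The count of genes called for the interaction (1) was 1 with RLE scaling, a non-robust fit or mitochondrial genes removed, 3 without the filter, and 0 in the 17 hearts alone, with the Xist covariate, with atrial and fat scores, with both together, with the clock component, with GC and length offsets and with thinned counts. DESeq2 gave 371, and hearts without Xist gave 1748, where 1 heart labelled MCT1KO with saline remained and was assumed to vary like the other groups. For WT (1168) the counts were 509 without the filter, 579 with Xist, 144 in hearts without Xist, 107 with GC and length offsets, 1949 with DESeq2, and 0 with the atrial and fat scores, with these and Xist, or with the clock component. For hearts labelled MCT1KO (1) they were 54 with Xist, 3942 in hearts without Xist, 209 with DESeq2, and 0 without the filter, in the 17 hearts alone, without robust fitting, with thinned counts, with GC and length offsets, with the scores, with the clock component, and with Xist and the scores.

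The rank correlation (0.0652) was 0.173 in hearts without Xist, −0.126 with the scores and −0.104 with Xist and the scores. The share of WT calls with the same sign (54.4%) was 86.8% in hearts without Xist and 43% with GC and length offsets; with the scores or the clock component there were no WT calls to count. The share of intervals within 2-fold (59.6%) was 31.9% without the filter, which tests more low genes. Leaving out 1 heart gave 0 to 663 interaction calls, 60 to 2234 calls in WT, 0 to 626 in hearts labelled MCT1KO, a rank correlation of −0.0746 to 0.217, a shared sign of 32.2% to 74.7% and intervals within 2-fold for 52.9% to 61.5%.

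Replicate numbers do not pair the hearts: over 21 same-numbered pairs the correlation of deviations averaged 0.0182 (−0.232 to 0.405), and 4 were over 0.1. With the replicate block the calls were 9 for the interaction, 527 in WT and 3 in hearts labelled MCT1KO, with a rank correlation of −0.0487. With the replicate block and GC and length offsets they were 9, 13 and 3, with −0.129 and a shared sign of 15.4%. Reversed values were −0.434 for the Elovl6 interaction and −0.652 for Cacna2d2 in hearts labelled MCT1KO with the scores, and −0.288 for Cacna2d2 and −0.127 for Sv2a there with Xist and the scores. The cause of these shifts was not tested. The groups of 3 to 6 hearts limit what differences could be seen, and batches of extraction or sequencing are not given, so they cannot be told apart from the groups.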

Other observations

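The rank correlation of the 2 pump responses was low at every expression level. In 4 equal bins of genes from the lowest to the highest mean level, rho was 0.15, 0.0964, 0.0864 and 0.0123, and the share with the same sign was 53.0%, 51.7%, 53.5% and 47.6%. In the highest bin the median response was 0.04 in WT and −0.07 in hearts labelled MCT1KO. In 4 such bins by GC content, the one with the least GC had medians of −0.16 in WT and −0.03 in hearts labelled MCT1KO, and the one with the most GC had 0.12 and 0.06, so the order was the same in both genotypes with a smaller span in hearts labelled MCT1KO. Within each GC bin rho was between 0.0145 and 0.0599. Among genes with an unadjusted p below 0.05 in both genotypes, 281 had the same sign and 181 the opposite sign.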
